A study of Mus musculus with 15 samples.

Results

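Major urinary proteins (MUPs) are small secreted lipocalins that the liver of male mice makes in large amounts, and which carry pheromones and other small hydrophobic molecules into the urine. Their genes lie next to each other on mouse chromosome 4 and many are near-identical copies. In male liver, pulses of growth hormone acting through the growth hormone receptor and the transcription factor Stat5b are known to drive Mup transcription.

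The Mup genes were followed here as every non-control array probe whose gene name is Mup and a number. This gave 12 probes for 10 genes, out of 55681 probes and 35715 gene names on the array, and all 12 are described. Mup4 and Mup20 had 2 probes each, which are distinguished by the first base of the transcript that they cover, and the other 8 genes had 1 probe each. The RefSeq annotation of GRCm38.p6 lists 22 numbered Mup genes, of which these probes name 10.

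RNA of whole liver tumors was hybridised to 1-colour Agilent arrays, 1 array per tumor. Of the 15 tumors, 5 were hepatocellular carcinomas (HCC) from p53f/f animals, another 5 were HCC from p53LKO animals, and the last 5, also from p53LKO animals, are labelled ICC, the usual abbreviation of intrahepatic cholangiocarcinoma. The p53LKO mice lack Trp53 in the liver, and p53f/f mice carry floxed Trp53 alleles that were not deleted. The sources used here do not name the Cre driver. All mice were on a C57/BL6J background, and all groups had received CCl4 in olive oil intraperitoneally from 6 weeks of age for 16 weeks, so no group was free of the toxin. The study design has mice killed at 24 and 36 weeks of age, and p53f/f mice were followed for tumors to 90 weeks. The sources used here do not say at which age the hybridised tumors were taken, so an age difference between the groups cannot be told apart from genotype. The study describes the HCC arrays as those of male mice, a point that matters for these genes, and on all 15 arrays the Y-linked genes Ddx3y and Eif2s3y were well above background while Xist was not. Of the other Y-linked genes looked at, Uty was well above background on 6 of 15 arrays and Kdm5d on 0. The 5 p53f/f HCC came from 4 mice, since mouse 3717 gave 2 tumors, and 4 mice gave both an HCC and an ICC of the p53LKO groups. Tumors are named below by mouse and tumor number.

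Array quality and identity were checked first. By the call that the scanner software makes for each spot, 37.0% to 70.1% of probes were well above background on an array, and no spot was saturated. The arrays lay on 2 slides of 2 rows. The upper rows held every p53f/f HCC and the lower rows every ICC, with p53LKO HCC in both. The 3 p53LKO HCC of the upper rows had 61% to 62.1% of probes well above background and the 2 of the lower rows 37.0% and 46.4%. The part of row in the Mup results is given with each comparison. The Trp53 probe, which may also read a Trp53 pseudogene, was lower in p53LKO HCC than in p53f/f HCC, with a log2 difference of -2.08 (standard error 0.24, limma adjusted p = 0.000166). It was well above background on 3 of 5 p53LKO HCC arrays, and under normexp correction the difference was -1.19. Hepatocyte markers were well above background in every tumor group, for 12 of 12 genes. Of the biliary markers, Epcam was well above background on 0 of 5 p53LKO HCC arrays and on 5 of 5 ICC arrays, which is at least a 78.2-fold difference, and Krt19 was 4.67 log2 units higher in ICC (standard error 0.62, limma adjusted p = 0.000304). In p53f/f HCC Epcam was well above background in 1 of 5 tumors, 3717 T2, at -1.27 against -6.50 to -5.05 in the others, and that tumor also had the highest Krt19 of its group (0.88).

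The 12 probes are 60 bases long and all lie on chromosome 4 of mm9, the build that the array files use. Because many of the genes are near-identical, a probe can measure a group of transcripts rather than 1 gene. The accessions listed for the Mup1, Mup2, Mup6, Mup17 and Mup19 probes belong to several genes. For each of the other probes, those that could be matched belong to 1 gene. By the RefSeq accessions that the files list for each probe, the Mup1, Mup2, Mup17 and Mup19 probes were linked through shared transcripts, the Mup6 probe was linked to both Mup4 probes, and the Mup20 probes were linked to each other. The Mup3, Mup5 and Mup21 probes shared no listed transcript with another probe. The Mup19, Mup2 and Mup1 probes were placed side by side at chr4:61439496-61439555, chr4:61440295-61440354 and chr4:61441060-61441119 on the minus strand. Of 66 pairs of probes, 6 had a local alignment score of 15 or more (match 1, mismatch -2), so their sequences are related enough for cross-hybridisation to be possible. The Mup3 and Mup6 probes are such a pair, with capitals at the 9 positions where they differ:
Mup3: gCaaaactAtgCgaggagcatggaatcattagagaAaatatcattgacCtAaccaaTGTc
Mup6: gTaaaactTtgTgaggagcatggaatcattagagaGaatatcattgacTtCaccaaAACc
The first lies at chr4:61745794-61745853 on the minus strand and the second at chr4:60018835-60018894 on the plus strand. They share an unbroken run of 23 bases.

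The Mup5 probe and the Mup4 probe that starts at base 95 overlap in the first part of the coding sequence. Capitals mark the 24 aligned bases, of which 22 are identical:
Mup5: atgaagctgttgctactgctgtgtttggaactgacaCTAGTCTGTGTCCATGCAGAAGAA
Mup4 at 95: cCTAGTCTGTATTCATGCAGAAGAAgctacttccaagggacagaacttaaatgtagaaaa
The probes of Mup4 at base 669, Mup19 and Mup20 at base 688 share a stretch. The 30 bases below are the part that all 3 hold, with capitals at the 3 positions where they are not all alike:
Mup4 at 669: ttctgtgatctgcTttccatcCtgtctCac
Mup19: ttctgtgatctgcAttccatcCtgtctCac
Mup20 at 688: ttctgtgatctgcTttccatcGtgtctTac
For comparison, the Mup1 probe and the Mup20 probe at base 314 had no alignment of that score with a probe of another Mup gene on the array:
Mup1: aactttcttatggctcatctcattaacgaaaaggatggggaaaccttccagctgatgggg
Mup20 at 314: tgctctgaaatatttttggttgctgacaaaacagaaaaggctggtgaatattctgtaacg
The latter lies at chr4:61713671-61713730 on the minus strand.

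Promoters were compared as well. The RefSeq table of GRCm38.p6 promoters held entries for 7 of the 10 genes (Mup2, Mup3, Mup4, Mup6, Mup17, Mup19 and Mup21). In the 250 bases before the start, Mup2, Mup17 and Mup19 were 96% to 97.2% identical, Mup4 and Mup6 were 91.6% identical and Mup3 and Mup21 were 91.6% identical, while Mup2 and Mup21 were 66.8% identical. The letters TATATAA, on either strand, were found in 7 of 7 of these windows and in 3.04% of 32851 promoters of the same length. In the Mup windows they lay 8 to 31 bases before the start that the promoter entry uses. For Mup2, Mup17 and Mup19 the annotated gene reaches further upstream, so part of the window, with TATATAA, lies inside it. The letters TTCNNNGAA, the form of a STAT5 site, were found in 0 of 7 windows on either strand and in 7.02% of all promoters. One promoter of each kind is shown, with TATATAA in capitals. Their positions are chr4:60139857-60140106 for Mup2, chr4:59960668-59960917 for Mup4 and chr4:62150842-62151091 for Mup21, all on the minus strand:
Mup2: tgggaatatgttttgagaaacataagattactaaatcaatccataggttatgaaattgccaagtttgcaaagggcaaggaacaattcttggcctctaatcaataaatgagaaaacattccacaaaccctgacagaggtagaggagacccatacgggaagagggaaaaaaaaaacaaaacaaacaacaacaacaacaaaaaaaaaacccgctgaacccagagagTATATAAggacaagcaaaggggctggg
Mup4: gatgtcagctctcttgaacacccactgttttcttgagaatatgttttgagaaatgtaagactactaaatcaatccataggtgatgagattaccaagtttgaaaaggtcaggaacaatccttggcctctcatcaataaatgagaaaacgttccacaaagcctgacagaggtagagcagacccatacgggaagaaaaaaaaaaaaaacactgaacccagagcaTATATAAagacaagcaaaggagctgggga
Mup21: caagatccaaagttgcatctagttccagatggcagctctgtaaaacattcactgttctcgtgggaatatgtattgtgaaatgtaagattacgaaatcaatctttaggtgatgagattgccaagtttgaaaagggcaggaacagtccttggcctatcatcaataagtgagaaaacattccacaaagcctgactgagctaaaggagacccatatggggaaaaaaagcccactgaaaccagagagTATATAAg

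Mup signal was lower in p53LKO HCC than in p53f/f HCC. Of the 12 probes, 10 were lower by over 2-fold with a limma adjusted p under 0.05, against 16.0% of the 36081 probes tested (19.6% in either direction), and 0 were higher at an adjusted or unadjusted p under 0.05, against 3.64% of all probes at the adjusted threshold. The differences ran from -3.26 to -2.17 on the log2 scale for the 11 probes that were well above background on every array, with a median of -2.85 for all 12 Mup probes and -0.12 for all probes tested. For 5 of 12 probes every p53LKO HCC was below every p53f/f HCC, against 16.4% of all probes, and for 0 of 12 the reverse held, against 6.09%. Among the 10 and the 5 is the Mup4 probe at base 95, which was well above background on 1 of 5 p53LKO HCC arrays. Signals are given below as log2 of the processed signal relative to the 75th percentile of the array, and they compare tumors for 1 probe, not probes with each other. In RNA of whole tumors, fewer cells that express a gene and less RNA per cell cannot be told apart.

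Mup20 encodes darcin, the male pheromone that attracts female mice. Its probe at base 314 read 8.34, 8.03, 7.54, 6.12 and 7.88 in the p53f/f HCC 3681 T1, 3715 T2, 3716 T1, 3717 T1 and 3717 T2. It read 6.03, 5.40, 5.08, 4.26 and 2.75 in the p53LKO HCC 3976 T1, 5283 T7, 3731 T2, 3733 T1 and 3975 T4. The groups did not overlap, and the closest tumors were 3717 T1 and 3976 T1. The difference was -2.88 (standard error 0.60, limma adjusted p = 0.00437), a 7.36-fold lower signal. The second Mup20 probe, at base 688, gave -2.17 (standard error 0.50, limma adjusted p = 0.00780), also without overlap.

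Mup3 read 5.27 to 7.58 in p53f/f HCC and 2.59 to 5.06 in p53LKO HCC, in the same order of tumors as the first Mup20 probe within p53LKO HCC. The difference of -2.82 (standard error 0.50, limma adjusted p = 0.00191) came without overlap. Mup21 had the smallest adjusted p of the 12 probes, with a difference of -3.0 (standard error 0.48, limma adjusted p = 0.00101). Its signal was 4.81, 4.47, 3.83, 2.30 and 3.26 in the p53f/f HCC and 1.14, -0.04, 0.40, 0.43 and 1.74 in the p53LKO HCC, in the order given above. For these 4 probes the exact permutation test over arrays gave p = 0.00794 (2-sided), the smallest that 5 against 5 arrays allow. That value follows from the lack of overlap and is no further support. It also treats the tumors of mouse 3717 as separate.

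Mup4, which is also expressed in nasal tissue, was lower at both probes. At base 669 the signal was 7.04 to 8.98 in p53f/f HCC and 4.0 to 7.14 in p53LKO HCC, and the difference was -2.50 (standard error 0.55, limma adjusted p = 0.00594). At base 95 it was -3.85 (standard error 0.67, limma adjusted p = 0.00162), but there all 5 p53f/f arrays and only 1 of 5 p53LKO HCC arrays exceeded background clearly, so the size of its change rests on signal near background, and under normexp correction it was -1.73. The remaining 11 probes were well above background on all 15 arrays. Mup5 and Mup6 were lower by similar amounts, with -3.04 (standard error 0.62) and -3.26 (standard error 0.70), and in both 4 of 5 p53LKO HCC lay below every p53f/f HCC.

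The 4 linked probes of Mup1, Mup2, Mup17 and Mup19 spread widely among p53f/f tumors. Mup1, whose product circulates in blood and is known to affect glucose metabolism, read 8.69, 8.59, 7.34, 5.20 and 6.89 in p53f/f HCC and 5.36, 4.38, 4.92, 4.05 and 2.49 in p53LKO HCC. The difference of -3.10 (standard error 0.70, limma adjusted p = 0.00675) was 8.59-fold, and only 3717 T1 lay within the range of the p53LKO HCC. Mup17 gave -2.81 (standard error 0.70, limma adjusted p = 0.0111).

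Mup2 and Mup19 were the 2 probes that did not pass the test. Mup19 read 8.73, 8.69 and 6.99 in the first 3 p53f/f HCC but 1.13 and 4.61 in the tumors of mouse 3717, against 2.44 to 4.76 in p53LKO HCC. The value of 3717 T1 lay below every p53LKO HCC. The difference was -2.26 (standard error 1.29, limma adjusted p = 0.199). Mup2 showed a similar pattern, with 6.40, 6.42, 4.43, -0.46 and 1.82 in p53f/f HCC against 0.19 to 2.19 in p53LKO HCC, and a difference of -2.30 (standard error 1.20, limma adjusted p = 0.161). Without 3717 T1 both passed, at -3.49 for Mup19 (limma adjusted p = 0.0131) and -3.35 for Mup2 (limma adjusted p = 0.0196), and without both tumors of that mouse the differences were -4.37 and -4.33.

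**Figure D1:**
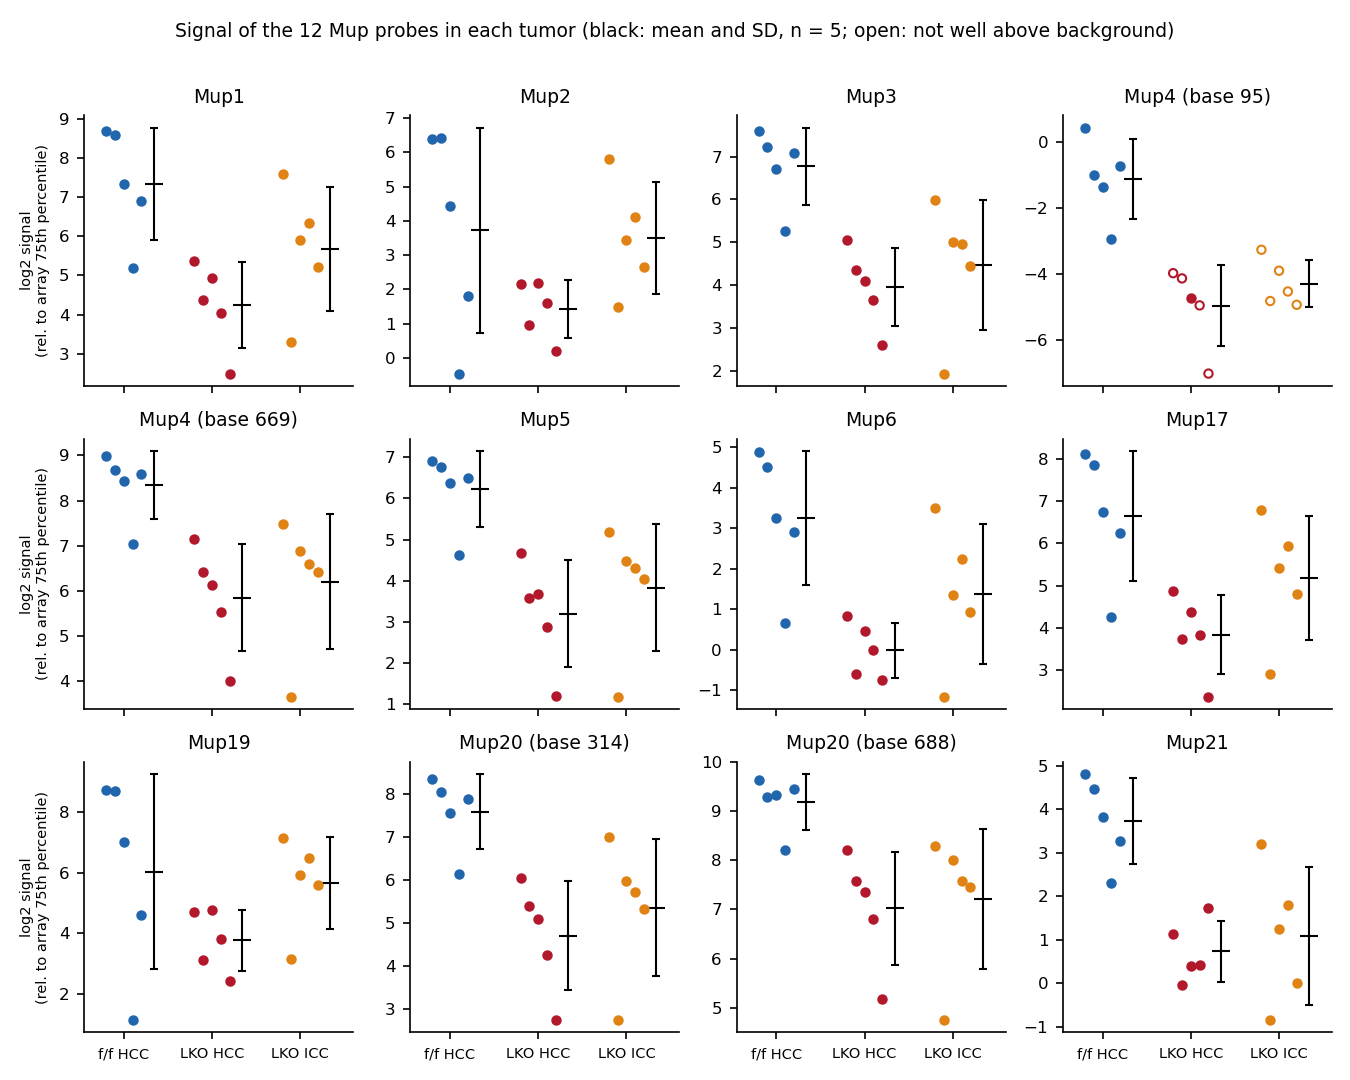
Each panel shows 1 Mup probe, with the log2 signal relative to the array's 75th percentile on the y axis and the 3 tumor groups on the x axis. Points are tumors, in the order of the text within a group, open points are arrays where the probe was not well above background, and black marks are mean and SD of 5 tumors. The p53LKO HCC sit below the p53f/f HCC without overlap for Mup3, Mup4 at base 95, both Mup20 probes and Mup21, and the 2 p53f/f tumors of mouse 3717 reach 1.13 and 4.61 for Mup19.

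Array position was taken into account in further fits. With slide as a block 10 probes passed (median -2.56), with row as a block 10 passed (median -3.22), and within the upper rows alone, which hold all 5 p53f/f HCC and 3 p53LKO HCC, 10 passed. The row block and the upper rows alone are not separate checks. No p53f/f HCC lies in the lower rows, so both rest on the same difference. Within slide 1 alone (4 against 2 arrays), where row and group cannot be told apart, 1 passed, and within slide 2 alone, with 1 p53f/f array against 3, limma called 0. In each of these last fits 10 had an unadjusted p under 0.05. On slide 2 the spread comes from the p53LKO HCC alone, with the single p53f/f array assumed to vary like them, so neither its calls nor its p-values bear on the result. With a Mann-Whitney test in place of limma 5 probes passed.

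Tumors of 1 group carried different Mup patterns. To set linked probes side by side, each probe was taken relative to its own mean over the 15 tumors, and linked probes were averaged, leaving out the Mup4 probe at base 95, which was not well above background on 9 of 15 arrays. These values are descriptions without a test. In p53f/f HCC the mean of Mup1, Mup2, Mup17 and Mup19 ranged over 5.46 log2 units, that of the Mup4 probe at base 669 and Mup6 over 3.08 (3.17 with the Mup4 probe at base 95), and that of the Mup20 probes over 1.83. In 3717 T1, the lowest of the p53f/f HCC for 12 of 12 probes, the first set stood at -2.22 and the other 5 sets at -0.31 to 0.45. In 3717 T2 it stood at 0.14 and the others at 1.41 to 2.07. The summed biliary markers of that tumor, at 4.83, were the highest of the p53f/f HCC, and their part in its Mup pattern was not tested. Without it 10 of 12 probes were lower in p53LKO HCC. Within the first set the deviations in 3717 T1 were -4.02 for Mup19, -3.34 for Mup2, -0.96 for Mup17 and -0.55 for Mup1, so the linked probes did not move alike. Albumin, the main plasma protein made by hepatocytes, deviated by 1.13 in 3717 T1, within its range of 0.61 to 1.39 in the p53f/f HCC.

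Among p53LKO HCC, 3975 T4 had the lowest signal for 10 of the 11 probes that were well above background on every array. Its sets stood at -2.47 to -3.24, except for Mup21 at -0.11, which was the highest Mup21 value of the group. Its albumin deviation was 0.72, near the top of the p53LKO HCC, which ranged from 0.09 to 0.74. Mup21 thus parted from the other Mup probes in that tumor, while in 3733 T1 the 6 sets lay between -1.54 and -1.31.

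**Figure D2:**
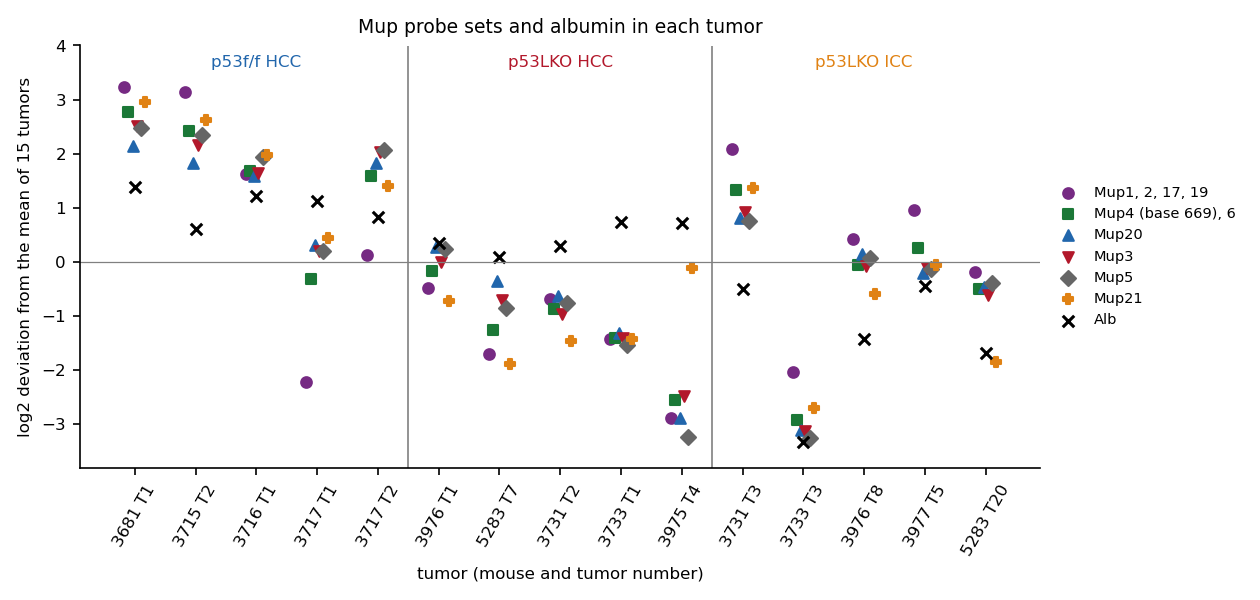
Each symbol is the mean log2 deviation of a set of linked Mup probes, or of albumin (cross), from its own mean over the 15 tumors, with tumors on the x axis by group. In 3717 T1 the set of Mup1, Mup2, Mup17 and Mup19 lies at -2.22 below the other sets, in 3975 T4 Mup21 lies at -0.11 above them, and in 3733 T3 all sets and albumin lie below -2.

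ICC was compared with HCC of the same p53LKO genotype. The p53LKO HCC are shared with the comparison above, so both sets of differences lean on the same 5 tumors. Of 11 Mup probes tested, 2 were higher in ICC at a limma adjusted p under 0.05 and over 2-fold, against 12.9% of the 32665 probes tested (26.4% in either direction). A lower signal passed for 0 of 11, at an adjusted or unadjusted p, against 13.4% of all probes at the adjusted threshold. The Mup differences ran from 0.19 to 2.08, with a median of 0.65 against -0.16 for all probes. For 0 of 11 probes were the groups apart, against 9.98% of all probes with ICC higher and 18.6% with ICC lower. The Mup4 probe at base 95 was not tested, being well above background on 1 of 5 HCC and 0 of 5 ICC arrays.

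Both probes that passed belong to the linked set. Mup2 read 2.17, 0.95, 2.19, 1.59 and 0.19 in p53LKO HCC, in the order given above, and 5.81, 1.48, 3.43, 4.12 and 2.65 in the ICC 3731 T3, 3733 T3, 3976 T8, 3977 T5 and 5283 T20. In 4 of 5 ICC it was above every HCC. The difference was 2.08 (standard error 0.71, limma adjusted p = 0.0340), a 4.23-fold higher signal. Mup19 read 7.16, 3.16, 5.92, 6.47 and 5.59 in the same ICC, with a difference of 1.89 (standard error 0.71, limma adjusted p = 0.0480). Mup1 and Mup17, of the same set, gave 1.43 (limma adjusted p = 0.140) and 1.33 (limma adjusted p = 0.129), and Mup6 gave 1.38 (limma adjusted p = 0.138).

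The remaining 6 differences were each smaller than their standard error. They were 0.65 for Mup20 at base 314, 0.19 for Mup20 at base 688, 0.64 for Mup5, 0.51 for Mup3, 0.36 for Mup4 at base 669 and 0.35 for Mup21, with standard errors of 0.67 to 0.78. Both calls were lost with the mouse as a replicate block, in which 0 probes passed the adjusted threshold of limma and 2 had an unadjusted p under 0.05, and with the row of the slide as a block, in which 0 had an unadjusted p under 0.05. With row as a block Mup20 at base 688 stood at -0.67, Mup4 at base 669 at -0.57, Mup20 at base 314 at -0.36, Mup5 at -0.29 and Mup3 at -0.24, and Mup21 turned below 0 when the ICC 3731 T3 was left out, so no direction is given for these genes in ICC.

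The 4 mice with both tumor types did not move together. In mouse 3731, the ICC was higher than the HCC for 11 of 11 probes, with a median of 2.40 log2 units. In mouse 3733 it was lower for 11 of 11, with a median of -1.28. In mouse 3976 it was higher for 6 of 11 and in mouse 5283 for 8 of 11, with medians of 0.13 and 0.45. The ICC minus HCC difference of albumin was -0.79, -4.07, -1.77 and -1.78 in the same order of mice, below 0 in all 4. The ICC with the lowest Mup signal for 11 of 11 probes, 3733 T3, was also the ICC with the lowest albumin, and 3731 T3 had the highest Mup signal for 11 of 11.

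**Figure D3:**
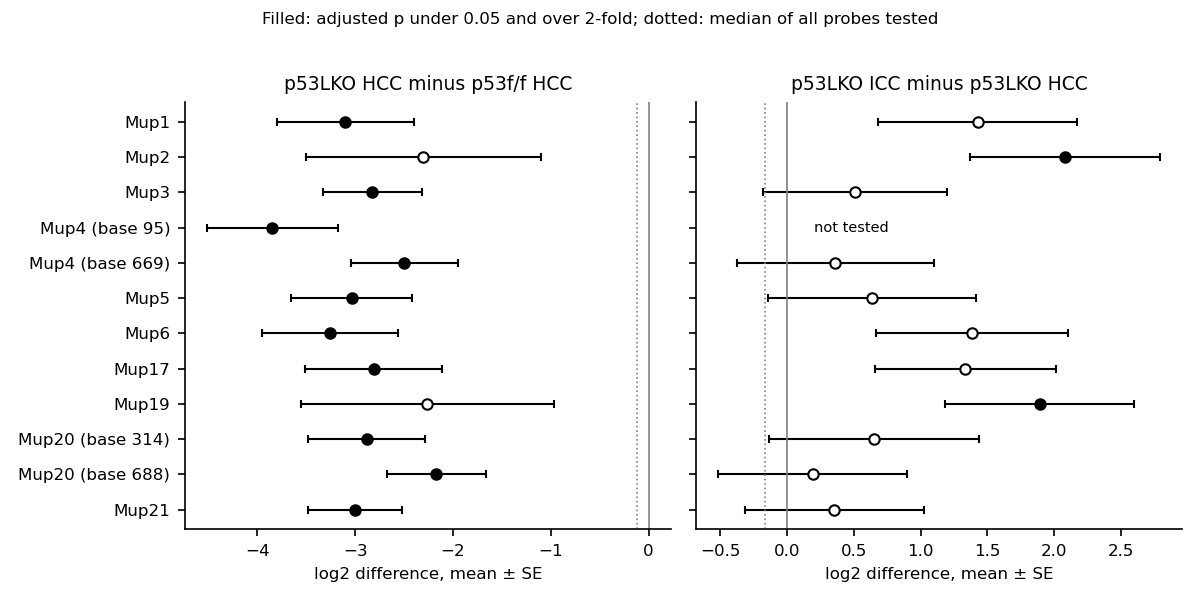
Points are log2 differences of the 12 Mup probes with their standard errors, in the HCC comparison on the left and for ICC against HCC on the right, and filled points passed the threshold. All 12 points on the left lie below 0, with 10 filled, and on the right 2 of 11 are filled, Mup2 at 2.08 and Mup19 at 1.89.

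Other hepatocyte genes were set beside the Mup probes in both comparisons, as a description without a test of the difference. Of 25 genes for secreted hepatocyte proteins, 3 were lower in p53LKO HCC (Apoa5, Fga and Apob), against 16.0% of all probes, and 0 were higher in limma (0 also at an unadjusted p under 0.05), with a median of -0.58 beside the -2.85 of the Mup probes. Without the 2-fold limit 10 of the 25 were lower at an adjusted p under 0.05, against 22.8% of all probes, and 14 at an unadjusted p under 0.05, against 28.7%. The count of 3 was 8 under scaling to probes detected on all arrays and 1 under spike-in scaling. Under spike-in scaling the list's median was 0.16 and that of the Mup probes -2.11. Apoa5, an activator of triglyceride clearance, had a difference of -2.97 (standard error 0.45, limma adjusted p = 0.000670). Albumin gave -0.60 (standard error 0.20, limma adjusted p = 0.0433), under 2-fold. Hepatocyte markers summed to 12.16 to 12.96 in p53f/f HCC and 11.85 to 12.24 in p53LKO HCC on the log2 scale, and 1 of 12 passed as lower. Of 6 leukocyte markers, Itgam, an integrin gene of myeloid cells, was lower (-2.09), and the other 5 did not pass, with differences of -0.41 to 0.85. The sum over all 6, in which Itgam was the 1 that passed, was 6.32 to 7.41 in p53f/f HCC and 5.54 to 5.86 in p53LKO HCC, so it does not show that leukocyte markers as a group were lower. Stellate cell and fibroblast markers summed to 3.87 to 6.01 and 5.41 to 7.56, with 1 of 7 higher, against 3.64% of all probes, a count that was 6 under spike-in scaling and 0 in limma under scaling to probes detected on all arrays. Of 4 endothelial markers, 1 was lower, Stab2 (-1.17, standard error 0.35), and 0 were higher, against 16.0% and 3.64% of all probes. Under spike-in scaling 0 of them were lower. The part of these cell types in the Mup differences was not tested.

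In ICC 17 of 25 of the secreted hepatocyte genes were lower than in HCC, against 13.4% of all probes, and 0 were higher in limma (0 also at an unadjusted p under 0.05), with a median of -1.53 beside 0.65 for the Mup probes. The count was 10 under quantile normalization and under scaling to probes detected on all arrays. No gene list was refitted with row as a block, although every ICC lay in the lower rows. Apoa4, an apolipoprotein, differed by -4.80 (standard error 0.69), Apoa1, the main protein of HDL, by -2.76 (standard error 0.61), the serpin gene Serpina3k by -2.35 (standard error 0.78) and albumin by -1.91 (standard error 0.48, limma adjusted p = 0.00860). Stellate cell and fibroblast markers summed to 8.27 to 9.21 in ICC, with 5 of 7 higher, and biliary markers to 6.07 to 7.18, against 2.48 to 3.41 in p53LKO HCC, with 4 of 8 tested higher, against 12.9% of all probes. The other lipocalins belong to the wider protein family of the MUPs. In ICC 6 of 11 were lower, among them Apom at -4.24 (standard error 0.58), C8g at -3.81 (standard error 0.60) and Lcn2 at -2.76 (standard error 0.28). Between the HCC groups 1 of 11 was higher, Lcn2 (1.34), and 1 lower, Apod (-1.66), against 3.64% and 16.0% of all probes, while under spike-in scaling 4 were higher and 0 lower. That scaling called 9834 of all 36081 probes higher and 2306 lower, which the other counts under it have to be read against.

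Genes of the growth hormone pathway, which is upstream of Mup transcription, mostly did not pass the test between the HCC groups. Of 14 genes, 1 was lower and 1 higher, against 16.0% and 3.64% of all probes. Under spike-in scaling, which raised the median of all probes to 0.62, 1 was lower and 5 were higher, and the list's median of 0.17 was -0.07 under scaling to probes detected on all arrays. Igf1, the main growth hormone target that the liver secretes, was lower in all 5 p53LKO HCC than in any p53f/f HCC, with a difference of -2.77 (standard error 0.37, limma adjusted p = 0.000356). Bcl6, a male-biased repressor known to compete with Stat5 mainly at female-biased genes, rose by 1.49 (standard error 0.25, limma adjusted p = 0.00123). The growth hormone receptor Ghr differed by 0.12 (standard error 0.30), Stat5b by -0.18 (standard error 0.16) and Cish, a feedback target of Stat5, by -0.02 (standard error 0.34). Socs2, another feedback target, gave -1.06 (standard error 0.38, limma adjusted p = 0.0528).

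In ICC 2 of the 14 were higher and 2 lower, against 12.9% and 13.4% of all probes. The lower count was 1 under normexp correction, spike-in scaling and scaling to probes detected on all arrays. The higher count was 3 under the last of these and under quantile normalization. Socs2 rose by 2.66 (standard error 0.18, limma adjusted p = 7.34e-06) and Socs3, a feedback inhibitor of cytokine signalling, by 1.65 (standard error 0.23). Ghr fell by 1.69 (standard error 0.38, limma adjusted p = 0.00485) and Igfals, which encodes the carrier subunit of circulating IGF complexes, by 1.03 (standard error 0.37). Stat5b gave -0.71 (limma adjusted p = 0.0208), under 2-fold, and Cish -0.17. Igf1 gave 0.89 (standard error 0.40, limma adjusted p = 0.0907).

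Other genes known to be male-biased in liver had a median below 0 between the HCC groups, in all scalings tried. Of 16 tested, 4 were lower and 0 higher in limma (0 also at an unadjusted p under 0.05), against 16.0% and 3.64% of all probes, with a median of -1.19. They were Susd4 (-2.56, standard error 0.63), the glucuronosyltransferase gene Ugt2b1 (-2.53, standard error 0.61), the organic anion transporter gene Slco1a1 (-1.85, standard error 0.36) and the complement gene C6 (-1.42, standard error 0.49). Under scaling to the spike-in probes 1 of the 16 was higher and 3 were lower. In ICC 6 of 14 were lower than in HCC and 0 higher in limma (0 also at an unadjusted p under 0.05), led by Cyp2d9 at -3.13 (standard error 0.59), Cyp4a12a at -3.05 (well above background on 1 of 5 ICC arrays) and Ugt2b38 at -2.98, with a median of -1.60, against 13.4% lower and 12.9% higher of all probes. Of 13 female-biased genes tested, 1 was higher in p53LKO HCC, Sult2a1 at 5.21 (standard error 0.79), a probe of a family of similar sulfotransferases, and 1 was lower. These counts were 3 and 0 under spike-in scaling and 1 and 2 under scaling to the probes detected on all arrays. They were 1 and 0 under normexp correction and under quantile normalization. The median of 0.13 changed sign under normexp correction and under scaling to the probes detected on all arrays. In ICC 3 of 13 were lower, namely Cyp2b10 (-2.75), Cyp2a4 (-2.24) and Cux2 (at least 1.28-fold, on 0 of 5 ICC arrays well above background), and 1 was higher, Sult1e1 at 2.36, beside the same shares of all probes.

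Among 13 transcription factors that are known at Mup genes or at sex-biased genes of the liver, 3 were higher and 1 lower in p53LKO HCC, against 3.64% and 16.0% of all probes. Those rises depended on scaling, with 7 higher relative to the spike-in probes and 0 relative to probes detected on all arrays. Zhx2, known as a regulator of Mup genes, cleared background on none of the p53f/f arrays and on 3 of 5 p53LKO HCC arrays. That is at least a 1.44-fold difference. Zhx2 is among the 3 called higher, but that call compares signal near background, so no p-value is given. Cebpb, an acute phase factor, gave 1.02 (standard error 0.19). Nr1d1, the clock repressor Rev-erb alpha, differed by -3.38 (standard error 0.59, limma adjusted p = 0.00174), and the time of day of tissue collection is not given in the sources used here. Hnf4a, a main factor of hepatocyte identity, gave 0.27 (standard error 0.17, limma adjusted p = 0.259). In ICC 4 of 12 were lower, among them Thrb (-2.27), Hnf4a (-2.03, standard error 0.28) and Rxra (-1.16), and 1 was higher, Foxa1 (1.02), against 13.4% and 12.9% of all probes. Under normexp correction 3 were lower and 0 higher, and under quantile normalization 5 and 1. With scaling to probes detected on all arrays 3 were lower and 2 higher. Zhx2 cleared background on 0 of 5 ICC arrays and no fold is given.

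**Figure D4:**
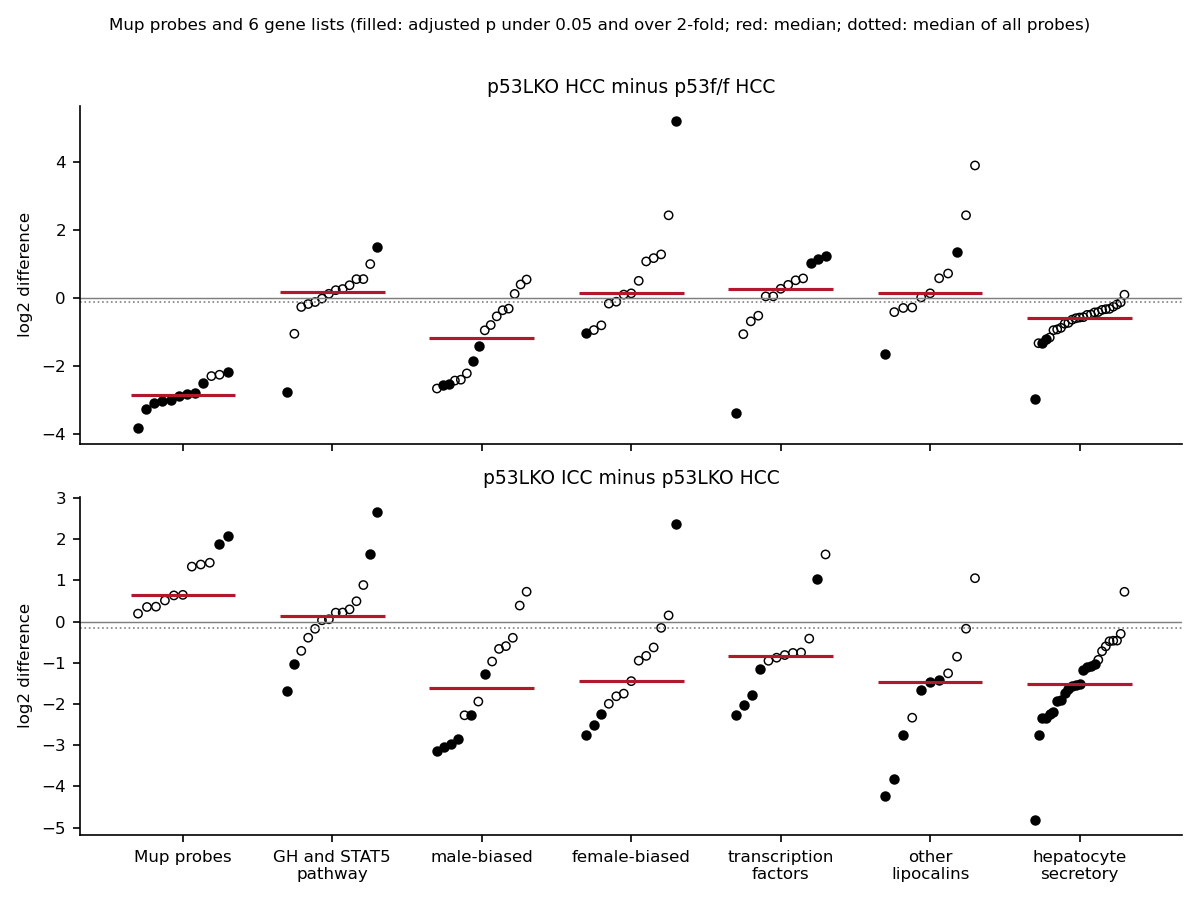
Each point is the log2 difference of a Mup probe or of a gene of 1 of 6 lists, in the HCC comparison (top) and for ICC against HCC (bottom), filled where it passed the threshold, with the median of each list as a red bar and that of all probes as a dotted line. The Mup median is -2.85 at the top, below that of every list, and 0.65 at the bottom, where the secreted hepatocyte genes have a median of -1.53.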

How the data were processed

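Scanner images were extracted by the authors with Feature Extraction 10.7.3.1. The intensity used from the deposited array files is the processed signal, from which background had been taken away. A further deposited table has log2 values, which correlated at 1.0000 with the rebuilt HCC values centred on the 10 HCC arrays (column medians -0.33 to 0.34). It was used as an alternative. GeneSpring settings are not given in the sources used here.

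For each probe, log2 processed signals of spots without outlier flags were averaged and shifted by the array's 75th percentile. Probes that 3 or more arrays of either group showed well above background were tested with limma 3.58.1 (R 4.3.3), 10 arrays per comparison, with Benjamini-Hochberg adjustment over all probes and calls at an adjusted p under 0.05 and over 2-fold. The design was not paired. Since 4 mice gave an HCC and an ICC, the same animals pair these tumors, and their deviations correlated at -0.18 to 0.13. The p-values measure the spread between tumors, some of which share a mouse. Genes of lists are represented by their brightest probe, and up to 3 called genes per list and direction are named, besides Ghr, Stat5b, Socs2, Cish, Igf1, Zhx2, Hnf4a, Alb and Trp53. Members and lists were chosen with earlier results of these data known. Bounds take the lowest signal well above background on each dim array. Sequences were aligned with Biopython 1.88, and promoters come from RefSeq. The fit was tested on simulated data. Alternatives were normexp (offset 50), quantile, detected-probe and 7-probe spike-in scaling, other filters, blocks, tests, and left-out tumors. The number of arrays limits the precision. Values of some called genes of the lists are not reported here.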

Additional observations from a re-analysis of the deposited data

Results flagged for a closer look

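Among 22 genes or probes in 3 groups, 9 of 66 groups of 5 tumors held 1 tumor far from the other 4 (Dixon's ratio above 0.71), where chance gives about 3.3 for independent groups. The Mup probes vary together and some may cross-hybridise, so the 9 cannot be read as an excess. Of these, 6 were Mup probes, and they lay in 2 tumors. In p53f/f HCC, 3717 T1 stood at 7.04 for Mup4 at base 669 (the other 4 tumors 8.43 to 8.98), at 4.63 for Mup5 (6.37 to 6.91) and at 8.21 for Mup20 at base 688 (9.30 to 9.65). In ICC, 3733 T3 stood at 3.65 for Mup4 at base 669 (6.41 to 7.49), at 1.17 for Mup5 (4.03 to 5.18) and at 4.74 for Mup20 at base 688 (7.45 to 8.30). The other 3 were Hnf4a in the same ICC, at 4.13 (5.34 to 5.70), Cish in the ICC 5283 T20, at 0.42 (1.71 to 2.03), and Igf1 in the p53f/f HCC 3681 T1, at 3.96 (5.0 to 5.17). The last of these tumors had the highest signal of its group for 11 of 12 Mup probes.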

How the results depend on the processing

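Over 28 alternative settings of the HCC comparison, 307 single-probe values kept their direction and side of the threshold and 24 lost and 4 gained the call, none changing direction. The count of 10 was 5 with a Mann-Whitney test, and, chosen after seeing the data, 1 on slide 1 and 0 on slide 2 alone. It was 10 to 12 with single tumors or both of mouse 3717 left out. The Mup median was -2.11 under spike-in scaling, which moved the median of all probes from -0.12 to 0.62, and -3.10 under scaling to detected probes. Calls over all probes changed from 1314 higher and 5774 lower to 934 and 1955 with normexp, 9834 and 2306 with spike-in scaling and 1002 and 846 with probes detected on every array. For ICC against HCC the count of 2 was 1 with spike-in scaling or on slide 1 alone, and 0 without a filter, with row as a block or the lower row alone, with 15 arrays in 1 model, with the methods' t-test, with a Mann-Whitney test, on slide 2 alone, and with the mouse as a replicate block. Leaving out single tumors gave 0 to 5, with 5 without the ICC 3733 T3 and 0 without the HCC 5283 T7, 3733 T1 or 3975 T4 or the ICC 3731 T3, 3976 T8 or 3977 T5. The unadjusted p was under 0.05 for 0 to 2 probes in those with 0 calls. Differences below 0 were, with row as a block and in the lower row alone, -0.29 (Mup5), -0.24 (Mup3), -0.57 (Mup4 at base 669), -0.36 (Mup20 at base 314) and -0.67 (Mup20 at base 688), without the HCC 3975 T4 -0.10 (Mup4 at base 669) and -0.27 (Mup20 at base 688), without the ICC 3731 T3 -0.18 (Mup21) and -0.077 (Mup20 at base 688), without the ICC 3976 T8 -0.0047 (Mup20 at base 688), with the mouse as a replicate block -0.20 (Mup4 at base 669) and -0.36 (Mup20 at base 688), and on slide 2 alone -0.30 (Mup21). The cause was not tested, beyond the fewer arrays where tumors were left out.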

Other observations

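Probes named for Mup pseudogenes or with a provisional name were looked at beside the Mup probes and chosen after their values were seen. The brighter of the Mup-ps12 probes gave -2.62 (standard error 0.54, limma adjusted p = 0.00428) and the Mup-ps16 probe -2.25 (standard error 0.52, limma adjusted p = 0.00752) in p53LKO against p53f/f HCC, and 0.31 and 0.21 in ICC against HCC. LOC100048884, like Mup2 and Mup19, did not pass in the first comparison and passed in the second, with -1.96 (standard error 1.47, limma adjusted p = 0.330) and 2.08 (standard error 0.70, limma adjusted p = 0.0325).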
